A study of Mus musculus with 6 samples.

Results

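In liver, 31 of 32 genes of fatty acid oxidation and ketone body formation did not pass the authors' test between mice lacking alkaline sphingomyelinase and wildtype mice, and 1, the peroxisomal thiolase gene Acaa1b, fell 1.92-fold. The share that passed was 3.1% of the 32 genes, against 1.08% of all 11515 genes the authors tested. The 32 genes were taken by name from the 23415 genes of the deposited table, and all 32 were found and had been tested by the authors. They were sorted into 17 genes of mitochondrial oxidation, 10 peroxisomal genes and 2 genes whose proteins occur in both organelles (Eci2 and Crat). Bdh1, Pdk4 and Vnn1 act on ketone bodies, on pyruvate dehydrogenase and on coenzyme A turnover. These 3 were set apart by function, not by organelle, so counts of mitochondrial genes below leave out Bdh1 and Pdk4.

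The study compared 3 knockout and 3 wildtype mice of the C57BL/6 strain, with RNA sequenced as 50-base single-end reads. Alkaline sphingomyelinase, the product of Enpp7, is an intestinal enzyme that digests sphingomyelin. The genotype of each library is given only by the letter K or W that opens its sample name. The labels do not give age, sex, diet, the time of day or how the allele was made, and nothing says that both groups were littermates or handled in the same session. The labels and the series title say liver, whereas the design text speaks of intestinal tissue. Expression values, in fragments scaled for transcript length and sequencing depth (FPKM), had a median over the 13 tested hepatocyte markers of 1082 in knockout and 1219 in wildtype liver. Alb, the other hepatocyte marker, is listed at 0 in both groups with the status HIDATA, which in a Cuffdiff table marks a gene with too many fragments to be computed, so this is not a measured level. Over 15 intestinal epithelium markers the median was 0.738 and 0.443 FPKM. Enpp7 itself was near 0 and not tested, at 0.141 and 0.0541 FPKM, so its level does not check the genotype labels here.

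Each value below is the authors' FPKM for a whole group. The deposited table has no value per mouse, so no spread between mice can be shown. A pair of levels is given as knockout, then wildtype. Ratios are log2 of knockout over wildtype, with the standard error (SE) implied by the authors' test statistic, and 95% intervals are built from that SE. Rose and fell are used only of genes with q below 0.05 by the authors' deposited table, a threshold met by 124 of the 11515 genes tested (1.08%), 66 of them higher (0.573%) and 58 lower (0.504%). The smallest log2 ratio that was called measured 0.78 in size. The median ratio of all tested genes was -0.0012. After scaling both groups to a common total it was -0.20, and the calls then numbered 189, of which 140 were lower. Depth per library is unknown. In whole liver, fewer cells of a type and less RNA per cell cannot be told apart.

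Beta-oxidation shortens fatty acyl-CoA by repeated rounds of dehydrogenation, hydration, a further dehydrogenation and thiolytic cleavage. Mitochondria take up most long-chain fatty acids as carnitine esters and pass the electrons to the respiratory chain. Peroxisomes start on very long, branched and dicarboxylic chains. In the fasted liver, acetyl-CoA formed in mitochondria feeds ketone bodies. The nuclear receptor PPAR-alpha, paired with RXR, is the best known inducer of these genes.

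**Figure D1:**
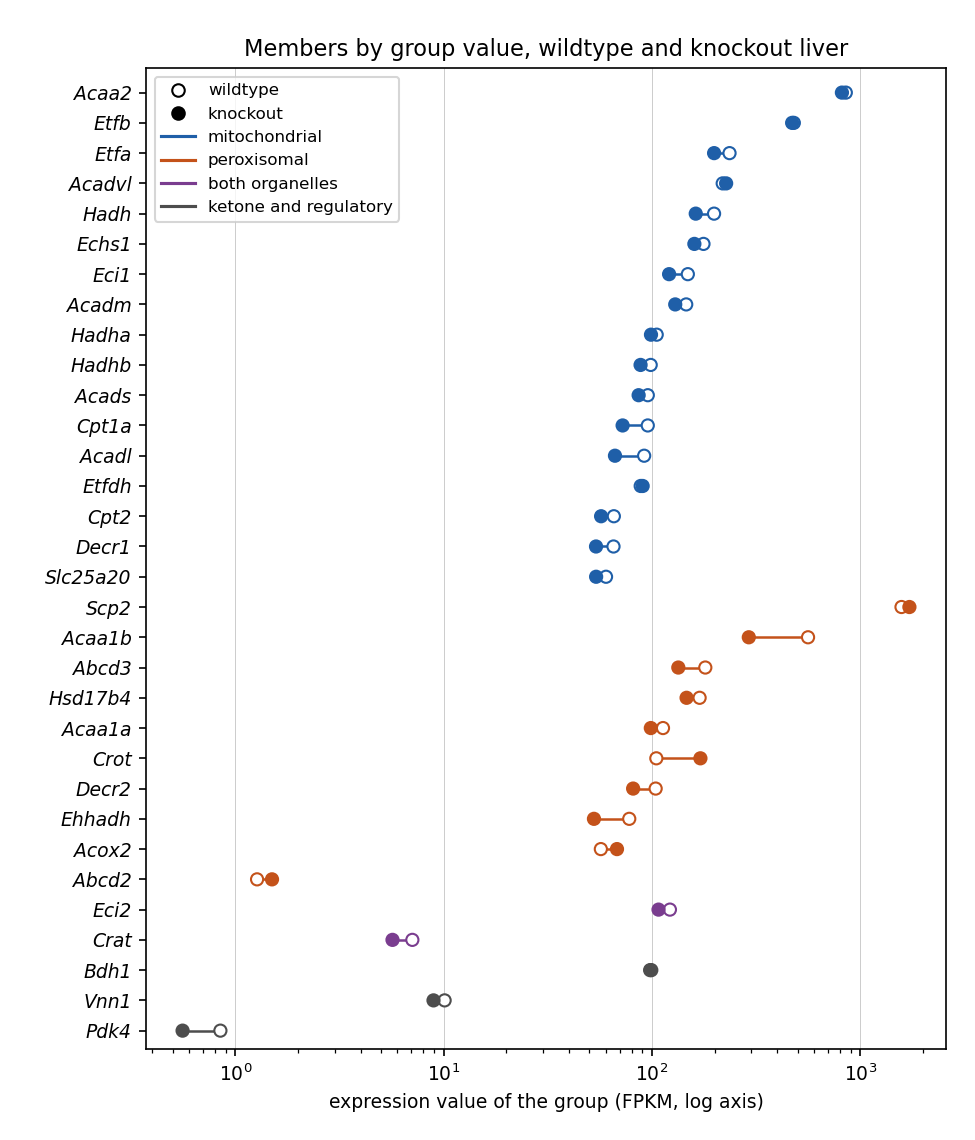
Expression value of each of the 32 members in wildtype (open circles) and knockout (filled circles) liver, in FPKM on a log axis. Genes are grouped by organelle, with Bdh1, Pdk4 and Vnn1 apart. Each point is 1 group value without error; the widest gaps among genes above 50 FPKM are those of Acaa1b and Crot, which point in opposite directions.

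None of the 17 mitochondrial genes was called, 0 rose and 0 fell, where 1.08% of all tested genes were called. At an unadjusted p under 0.05 there was 1 gene, Acadl (5.88%, close to the 5.29% of all tested genes). Of the 17 ratios 15 lay below 0, and the median was -0.16, with a range from -0.47 to 0.05. Summed over the 17 genes the levels were 2953 FPKM (knockout) and 3223 FPKM (wildtype). With the values as deposited, the 95% interval of all 17 genes excluded both a 2-fold fall and a 2-fold rise, and for 16 it included 0. After scaling to a common total all 17 ratios were below 0, as were 77.2% of all tested genes. The intervals of Cpt1a and Acadl then no longer excluded a 2-fold fall. Under that scaling 5 intervals lay below 0, those of Cpt1a, Acadl, Hadh, Eci1 and Decr1. With the acute phase genes left out of the total, all 17 ratios were below 0, against 59.1% of all tested genes. In that setting all 17 intervals excluded a 2-fold fall and 1, that of Acadl, lay below 0. As deposited, the 17 ratios were smaller in size than any ratio called.

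Entry of acyl groups into the matrix needs Cpt1a, the rate-limiting carnitine palmitoyltransferase of the outer membrane, the carrier Slc25a20 and the inner membrane enzyme Cpt2. Cpt1a was at 72.3 and 95.5 FPKM, the second lowest ratio of the mitochondrial genes (-0.40 ± 0.24 SE, 95% interval -0.87 to 0.07). Slc25a20 stood at 54.0 and 60.2 FPKM and Cpt2 at 57.0 and 65.6 FPKM. All 3 levels were lower in the knockout group, by less than 2 SE each.

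The acyl-CoA dehydrogenases open each round and differ in the chain length they prefer. Acadl, the long-chain enzyme, was at 66.5 and 91.8 FPKM, with a ratio of -0.47 ± 0.22 SE (p = 0.0366, q = 0.830 in the authors' deposited table). Acadvl, the very long-chain enzyme and the most abundant of the 4, was at 227 and 219 FPKM. Acadm, for medium chains, stood at 129 and 146 FPKM and Acads, for short chains, at 86.3 and 95.5 FPKM. Acadl and Acadvl, which overlap in chain length, thus had ratios of opposite sign, and neither was called. The sign of Acadvl, at 0.05, turned to -0.14 after scaling to a common total.

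Of the later steps, the trifunctional protein of the inner membrane is built from Hadha, which holds the hydratase and long-chain dehydrogenase, and Hadhb, the thiolase. Hadha was at 99.0 and 105 FPKM and Hadhb at 88.2 and 98.6 FPKM, so that both subunits lay at similar levels in each group (ratios -0.09 ± 0.24 SE and -0.16 ± 0.22 SE). The 2 genes are read in opposite directions from neighbouring starts on chromosome 5. The stretch between the RefSeq starts, 272 bases on GRCm38.p6 at chr5:30154981-30155252, is shown on the plus strand because it is the upstream sequence of both subunits, with Hadha leaving to the left and Hadhb to the right.
Hadha-Hadhb: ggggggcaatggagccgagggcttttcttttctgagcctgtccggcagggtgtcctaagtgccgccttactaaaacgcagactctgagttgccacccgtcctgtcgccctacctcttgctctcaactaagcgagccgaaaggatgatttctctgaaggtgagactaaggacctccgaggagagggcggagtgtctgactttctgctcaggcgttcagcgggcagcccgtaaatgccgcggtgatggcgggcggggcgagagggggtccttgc

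For shorter chains the matrix enzymes act singly. Echs1, the short-chain hydratase, was at 160 and 177 FPKM, and Hadh, the medium- and short-chain hydroxyacyl-CoA dehydrogenase, at 162 and 199 FPKM. Acaa2, the mitochondrial thiolase of medium chains, was the most abundant mitochondrial member, at 816 and 852 FPKM (-0.06 ± 0.29 SE). The 95% interval of the Acaa2 ratio ran from -0.63 to 0.51, where that of its peroxisomal counterpart Acaa1b ran from -1.46 to -0.43.

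Unsaturated chains need an isomerase and a reductase. Eci1, the mitochondrial enoyl-CoA isomerase, was at 121 and 149 FPKM (-0.30 ± 0.22 SE) and Decr1, the mitochondrial dienoyl-CoA reductase, at 53.9 and 65.4 FPKM (-0.28 ± 0.22 SE). Eci2, an isomerase found in both organelles, stood at 108 and 122 FPKM. Each of these was lower in the knockout group and none was called.

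Electrons from the dehydrogenases pass through the electron transfer flavoprotein, made of Etfa and Etfb, to its membrane oxidoreductase Etfdh. Etfb was at 471 and 480 FPKM and Etfdh at 90.2 and 88.3 FPKM, ratios of -0.03 and 0.03, the second of which turned to -0.16 after scaling to a common total. Etfa was at 199 and 236 FPKM (-0.25 ± 0.23 SE). The 2 subunits of the flavoprotein therefore differed in level in both groups, with Etfb above Etfa.

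**Figure D2:**
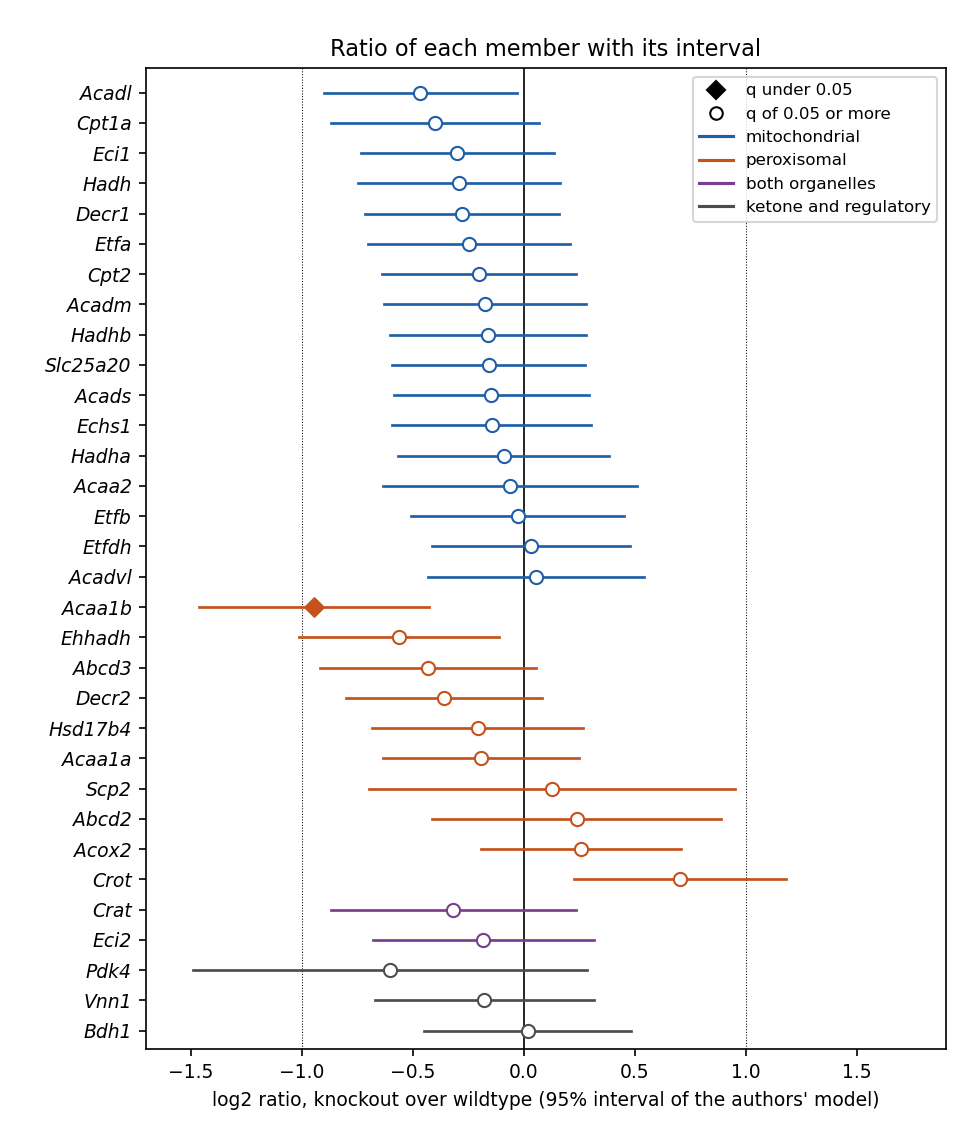
Log2 ratio of knockout over wildtype for each member, with the 95% interval from the authors' model; dotted lines mark a 2-fold change, and the filled diamond marks q under 0.05. As deposited, all 17 mitochondrial intervals lie between the dotted lines, whereas peroxisomal ratios run from -0.94 (Acaa1b) to 0.70 (Crot).

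The peroxisomal genes spread more widely than the mitochondrial ones, which was not tested. Among its 10 genes 1 fell, 0 rose and 9 missed the threshold. With 6 ratios below 0 and 4 above, the median was -0.20. Of the 32 members together 4 had an unadjusted p under 0.05 (12.5%, against 5.29% of all tested genes), and 3 of these are peroxisomal, namely Acaa1b, Crot and Ehhadh. Most members are abundant, 28 of them with a mean level of at least 50 FPKM. All 4 genes with such a p are among these 28. Among the 1427 tested genes at that level the share was 8.62%.

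Acaa1b, 1 of 2 mouse genes for the peroxisomal 3-ketoacyl-CoA thiolase that ends each peroxisomal round, was at 292 FPKM in knockout liver against 562 FPKM in wildtype liver. Its ratio was -0.94 ± 0.26 SE (q = 0.0355 in the authors' deposited table), a fall of 1.92-fold with a 95% interval from 1.35-fold to 2.75-fold. It was 1 of 58 genes called lower. The gene lies on the minus strand of chromosome 9 at 119148043 to 119157093 (mm10). Its q was between 0.00213 and 0.0325 under the other scalings and filters, and 0.352 under the more cautious Benjamini-Yekutieli adjustment, which ended the call.

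Acaa1a, the other gene of the pair, lies 184 kb away on the plus strand of chromosome 9, at 119341294 to 119350295. It was at 98.8 and 113 FPKM, with a ratio of -0.19 ± 0.23 SE (95% interval -0.64 to 0.25) that did not pass. Acaa1b therefore stood at 4.97 times the level of Acaa1a in the wildtype group and at 2.95 times in the knockout group. That the 2 genes differ in response was not tested, and their reads are not independent, as the sequences show.

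The coding sequences of Acaa1b and Acaa1a, read as the longest open frame of the longest GENCODE M21 transcript, are both 1275 bases long and are equal at 1231 positions (96.5%). Of the 1226 stretches of 50 bases, the read length, 759 (61.9%) differ in at least 1 base and 467 are the same in both genes. The following pair is the stretch with the most differences, coding bases 269 to 318, with the 11 bases that differ in capitals.
Acaa1b: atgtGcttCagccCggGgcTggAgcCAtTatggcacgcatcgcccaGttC
Acaa1a: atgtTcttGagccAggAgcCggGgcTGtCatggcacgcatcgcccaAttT

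By contrast, coding bases 28 to 77 are the first 50 bases that are the same in both, so that a read from there fits either gene.
Acaa1b: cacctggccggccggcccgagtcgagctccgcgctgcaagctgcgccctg
Acaa1a: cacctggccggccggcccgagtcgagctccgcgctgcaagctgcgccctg

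Over the whole Acaa1b transcript, 46.2% of the 50-base stretches also occur in transcripts of another gene on either strand, most of them in Acaa1a and the rest in Dlec1. For Acaa1a the share was 35.1%. How such reads were assigned is not stated, so the values of Acaa1b and Acaa1a are uncertain one by one.

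Upstream of their starts the 2 thiolase genes differ. The 250 bases before each RefSeq start (GRCm38.p6) are shown, each in its own direction of transcription, because the level of 1 gene was called and that of the other was not. Acaa1b is at chr9:119157094-119157343 on the minus strand and Acaa1a at chr9:119341044-119341293 on the plus strand.
Acaa1b: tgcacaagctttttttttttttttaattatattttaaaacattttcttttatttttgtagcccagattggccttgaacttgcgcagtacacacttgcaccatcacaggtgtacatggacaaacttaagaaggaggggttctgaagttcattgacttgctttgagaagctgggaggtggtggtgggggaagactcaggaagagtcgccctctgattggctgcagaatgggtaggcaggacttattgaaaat
Acaa1a: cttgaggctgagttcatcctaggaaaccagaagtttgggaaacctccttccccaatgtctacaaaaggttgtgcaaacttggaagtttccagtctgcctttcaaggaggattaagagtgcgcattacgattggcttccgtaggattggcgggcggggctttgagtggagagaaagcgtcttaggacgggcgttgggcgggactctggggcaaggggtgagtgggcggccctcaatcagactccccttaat

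These windows were searched for the direct repeat bound by PPAR-alpha with RXR, AGGTCANAGGTCA, a pair of AGGTCA half-sites with 1 base between them, on both strands and with up to 2 mismatches. In windows from 250 bases before to 50 bases after the start, it was found in 3.86% of the 32851 RefSeq windows of the mouse. RefSeq windows were found for 26 of the 32 members, 29 in all, and 4 of them held a match. The members with no window in the table are Acaa2, Decr1, Hsd17b4, Abcd2, Crat and Vnn1. The windows of Acaa1b, Acaa1a, Ehhadh and Crot were searched and held no match. The stretch between Hadha and Hadhb held none either. The 4 matches are given with the half-sites in capitals and the spacer in lower case, in the direction of the gene. Those of Echs1 and Etfa lie before the start and those of Slc25a20 and Acox2 just after it.
Echs1: AGGTCAcGGGTCC
Etfa: TTACCTtTGCCCT
Slc25a20: AGGTGAaAGGTCG
Acox2: AGGACAgAGGTGA

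None of the 4 genes with a match was called. Echs1 had a ratio of -0.15, Etfa of -0.25, Slc25a20 of -0.16 and Acox2 of 0.26. A match describes letters only, and longer distances from the start were not searched.

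Within the peroxisomal round, an oxidase acts first and a bifunctional enzyme next. Acox2, the oxidase of branched chains and bile acid intermediates, was at 67.9 and 56.9 FPKM (0.26 ± 0.23 SE). Ehhadh, the bifunctional enzyme that handles dicarboxylic acids, was at 52.7 and 77.8 FPKM, with a ratio of -0.56 ± 0.23 SE (p = 0.0142, q = 0.491 in the authors' deposited table). Hsd17b4, the bifunctional enzyme of branched and very long chains, was at 147 and 169 FPKM (-0.21 ± 0.24 SE). Among the 3, Ehhadh had the lowest ratio and its 95% interval of -1.01 to -0.11 excluded 0, but it was not called.

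Crot, the carnitine octanoyltransferase that readies shortened chains for export from peroxisomes, went the other way. It was at 171 FPKM in knockout liver against 105 FPKM in wildtype liver, the highest ratio of all members (0.70 ± 0.24 SE, p = 0.00378, q = 0.201 in the authors' deposited table). Its 95% interval was 0.23 to 1.18, and it did not pass under any scaling, filter or adjustment tried, with q from 0.139 to 1.0. Crat, carnitine acetyltransferase of both organelles, was at 5.68 and 7.08 FPKM and Cpt1a, above, was likewise lower in the knockout group.

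Scp2, which encodes both a branched-chain thiolase and a sterol carrier protein, was the most abundant member, at 1722 and 1577 FPKM (0.13 ± 0.42 SE). Decr2, the peroxisomal dienoyl-CoA reductase, stood at 81.2 and 104 FPKM (-0.36 ± 0.23 SE). Of the transporters that bring acyl-CoA across the peroxisomal membrane, Abcd3 was at 134 and 180 FPKM (-0.43 ± 0.25 SE) and Abcd2 at 1.5 and 1.27 FPKM (0.24 ± 0.33 SE). Abcd3 thus exceeded Abcd2 by 89.2 times in the knockout group and 142 times in the wildtype group, and neither gene was called. The ratio of Scp2 was also the least precise among the abundant members, and it turned to -0.07 after scaling to a common total.

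Bdh1, which converts acetoacetate to beta-hydroxybutyrate, was at 99.3 and 98.0 FPKM, a ratio of 0.02 ± 0.24 SE with a 95% interval from -0.45 to 0.48, and after scaling to a common total the ratio was -0.18. Pdk4, a kinase that switches off pyruvate dehydrogenase in fasting, was low in both groups, at 0.558 and 0.848 FPKM (-0.60 ± 0.45 SE, and a ratio of -0.25 with a pseudocount of 1). Vnn1, a pantetheinase known as a PPAR-alpha target, was at 8.94 and 10.1 FPKM (-0.18 ± 0.25 SE). None of the 3 was called, and the wide Pdk4 interval of -1.49 to 0.29 includes a 2-fold fall.

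Other members carry sequence shared with further genes. Of the 32 members, 25 share under 10% of their 50-base stretches with transcripts of another gene, and 15 share none. The shares were 67.3% for Etfb (with the annotated gene Gm45233), 62.4% for Hadhb (mostly Gm13910), 41.4% for Scp2 (Scp2-ps2), 24.0% for Acadvl (its neighbour Dvl2) and 11.3% for Eci2. How far the values of these genes are affected is unknown, since neither strand nor the treatment of shared reads is stated. The share is a count of matching stretches and does not measure an error in FPKM. Cpt1a, Acadl, Ehhadh and Abcd3 share none.

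**Figure D3:**
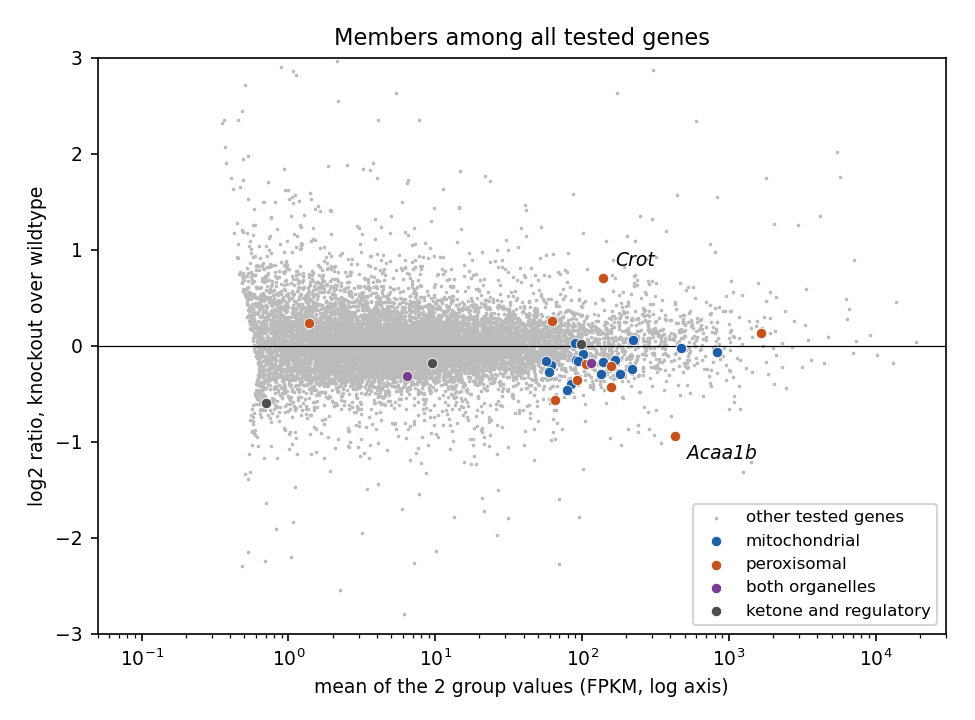
Log2 ratio against the mean of both group values for tested genes (grey) and the members (coloured), on a log axis for FPKM. The 59 tested genes at 0 in 1 group have no finite ratio and are not shown. Of the others, 27 lie outside the axes. The members sit mostly at or above 50 FPKM and just below a ratio of 0, with Acaa1b lowest and Crot highest.

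Across the whole set 25 of 32 ratios lay below 0 (78.1%) and the median was -0.18, where 50.1% of all tested genes lay below 0. Of the members 28 had a mean level of at least 50 FPKM, with 22 ratios below 0 and a median of -0.18. Among the 1427 tested genes at that level 44.9% lay below 0, with a median of 0.03. Of those 1427 genes 2.45% were called, and of the 28 members at that level 1 was, Acaa1b. The direction of the members' median was the same under every scaling tried, from -0.18 as deposited to -0.37 after scaling to a common total, where the median of all genes was itself -0.20. The members were not chosen independently of these data, and the median is a description.

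**Figure D4:**
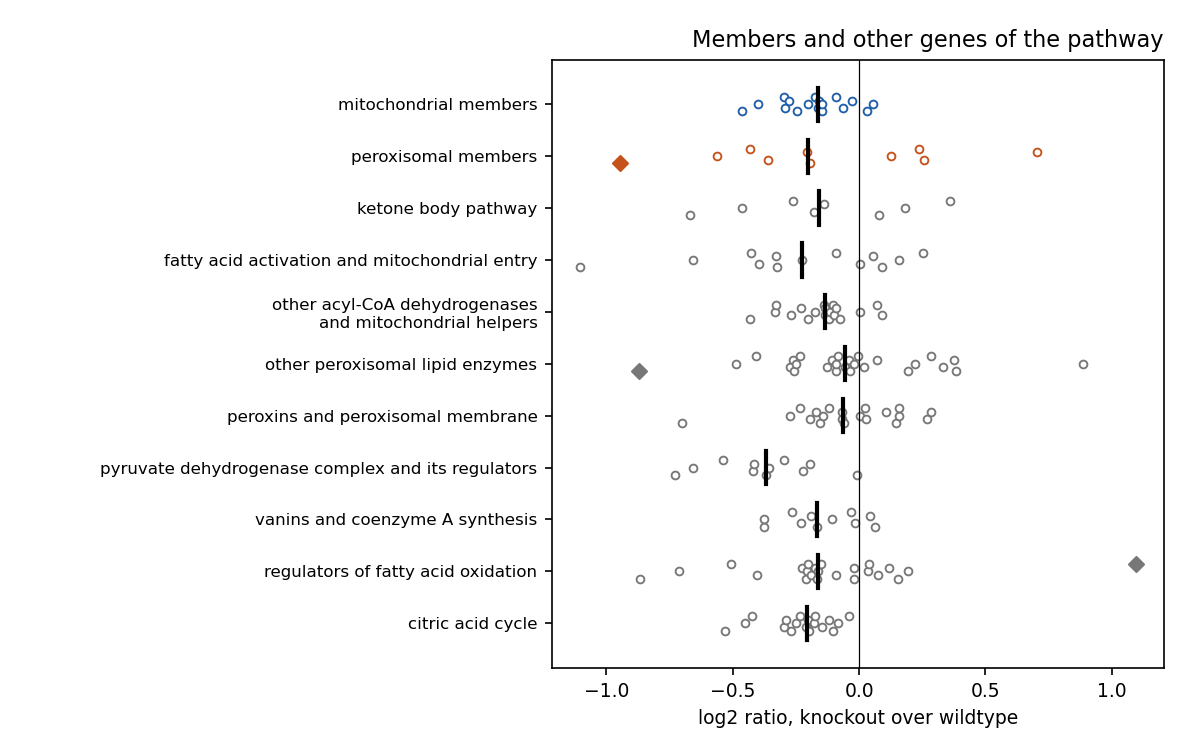
Log2 ratio of knockout over wildtype for the tested genes of the mitochondrial and peroxisomal members and of 9 lists of related genes; diamonds mark q under 0.05, black bars the median of each list and the thin line the median of all tested genes. All 18 citric acid cycle genes and all 11 genes around pyruvate dehydrogenase lie left of 0, as do 15 of 17 mitochondrial members.

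Among ketone body genes outside the set 0 of 8 tested were called, and 1, Slc16a7, had an unadjusted p under 0.05. The list median was -0.16. Slc16a7, a monocarboxylate transporter, was at 9.17 and 14.6 FPKM (-0.67 ± 0.25 SE, q = 0.297 in the authors' deposited table), and passed only after scaling to a common total (q = 0.0316).

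Genes of fatty acid activation and mitochondrial entry held 0 calls among 13 tested, with a median of -0.23 and 8 ratios below 0. The most abundant were Dbi, an acyl-CoA binding protein, at 1694 and 1422 FPKM, and Acsm1, a medium-chain acyl-CoA synthetase, at 212 and 190 FPKM, both with ratios above 0, although that of Acsm1 turned to -0.04 after scaling to a common total. Slc25a29, a mitochondrial carrier, was the only 1 at an unadjusted p under 0.05, at 0.974 and 2.09 FPKM (-1.11 ± 0.42 SE, q = 0.361 in the authors' deposited table), and its ratio was -0.65 with a pseudocount of 1 added to both levels. Among 19 tested relatives of the acyl-CoA dehydrogenases and helpers, 0 were called and 0 had an unadjusted p under 0.05. Their median was -0.14, with Sardh at 235 and 282 FPKM, Gcdh at 251 and 276 FPKM and Acad10 at 5.14 and 6.93 FPKM.

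Of 27 tested other peroxisomal lipid enzymes 1 fell and 0 rose, with a median of -0.06 and 18 ratios below 0. Aldh3a2, the fatty aldehyde dehydrogenase, fell from 94.1 to 51.5 FPKM (-0.87 ± 0.23 SE, q = 0.0172 in the authors' deposited table), a call that the Benjamini-Yekutieli adjustment ended (q = 0.171). Acnat2, a peroxisomal acyltransferase, was at 6.40 and 3.47 FPKM (0.88 ± 0.34 SE) and did not pass. Cat, catalase, stood at 929 and 1112 FPKM and Phyh, the hydroxylase that begins phytanic acid breakdown, at 909 and 1082 FPKM.

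Peroxisome assembly genes gave 0 calls among 20 tested, with a median of -0.06. Pex11a, a peroxisome division factor, was the 1 gene at an unadjusted p under 0.05, at 28.2 and 45.8 FPKM (-0.70 ± 0.24 SE, q = 0.201 in the authors' deposited table). It passed only after scaling to a common total (q = 0.0182). The membrane proteins Pxmp2, at 142 and 142 FPKM, and Pex16, at 88.0 and 73.0 FPKM, had ratios at or above 0, and that of Pxmp2 turned to -0.19 after scaling to a common total.

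Around pyruvate dehydrogenase, the step that Pdk4 controls, all 11 tested ratios were below 0, the median was -0.37 and 0 genes were called. At an unadjusted p under 0.05 there were 3, all lower. Pdk1, a kinase of the complex, was at 11.7 and 19.3 FPKM (-0.73 ± 0.22 SE, q = 0.0885 in the authors' deposited table), and Dlat and Pdpr were the others. Pdk1 passed after scaling to a common total (q = 0.00471), also with the acute phase genes left out of that total (q = 0.0428). Pdhb, a subunit of the complex, stood at 101 and 136 FPKM, while Mpc2, of the pyruvate carrier, was at 185 and 186 FPKM.

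All 18 citric acid cycle genes likewise had ratios below 0, with a median of -0.21 and 0 calls, while 1 of the 18 had an unadjusted p under 0.05. Mdh2 was at 176 and 216 FPKM and Sdhb at 203 and 235 FPKM. Small ratios below 0 were thus seen in mitochondrial genes outside beta-oxidation too. Lists that are not mitochondrial also held them. Of 12 sinusoidal endothelium markers 10 lay below 0 (median -0.17), as did 10 of 12 stellate cell and fibroblast markers (median -0.20). These 2 were the marker lists with the largest share below 0 (83.3%). Of 13 tested hepatocyte markers 8 lay below 0 (median -0.13), of 8 intestinal epithelium markers 3 and of 4 red blood cell markers 1. All 13 tested Kupffer cell markers lay above 0. Genes of coenzyme A synthesis and vanins, 11 tested, had a median of -0.17, 0 calls and 0 at an unadjusted p under 0.05, with Pank1 at 55.5 and 66.7 FPKM, Coasy at 71.8 and 73.5 FPKM and Pank3 at 5.46 and 7.10 FPKM.

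Among 23 tested regulators of fatty acid oxidation 1 rose and 0 fell. Nr1d1 (Rev-erb alpha), a repressor of the circadian clock, rose from 19.2 to 41.0 FPKM (1.10 ± 0.23 SE, q = 0.000429 in the authors' deposited table). Ppara was at 26.5 and 31.0 FPKM (-0.22 ± 0.26 SE, 95% interval -0.74 to 0.29), and its coactivator Ppargc1a at 1.13 and 1.10 FPKM, a ratio of 0.04 that turned to -0.16 after scaling to a common total. Hnf4a stood at 142 and 152 FPKM and Creb3l3 at 143 and 145 FPKM. Lpin1, Pprc1 and Prkaa2 were lower at an unadjusted p under 0.05 and did not pass, at ratios of -0.87, -0.71 and -0.51.

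Some markers of other cell types and of the acute phase were also called between the same groups. Of 30 acute phase genes 14 rose and 0 fell, where 0.573% of all tested genes rose. Levels of the 30 genes summed to 74944 FPKM (knockout) and 15432 FPKM (wildtype). Ltf, Ngp, S100a8 and S100a9 rose among 10 tested markers of neutrophils and monocytes (4 genes, summed level over all 13 listed 114 and 8.52 FPKM). Of 13 Kupffer cell markers 2 rose (Marco and C1qa, summed level 606 and 393 FPKM), and of 6 tested cholangiocyte markers 1 rose (Spp1). More of these genes were higher at an unadjusted p under 0.05. They numbered 24 of the acute phase genes, 8 of the neutrophil and monocyte markers, 8 of the Kupffer cell markers and 1 cholangiocyte marker. Every tested ratio in these lists lay above 0. The lists were chosen with earlier results of these data known, so their counts are a description. Among all tested genes 5.29% had an unadjusted p under 0.05, in either direction. No tested marker of hepatocytes (13), sinusoidal endothelium (12), stellate cells (12), T, NK and B cells (3), red blood cells (4), intestinal epithelium (8) or adipocytes (2) was called, with 1, 1, 3, 0, 2, 2 and 0 at an unadjusted p under 0.05, and no muscle marker was tested. The part of these shifts in the lower Acaa1b level, or in the members' ratios, was not tested.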

How the data were processed

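Liver RNA of 3 knockout and 3 wildtype mice was analysed from 2 deposited tables. Per the submitters' processing notes, the reads went through Bowtie2 (no version) with mm10; the program behind the tables is not stated. The authors deposited 1 value per group and gene. The file headers name no unit; the columns are those of a Cuffdiff table, so the values were read as the authors' FPKM. The authors' deposited p-values and q-values were used unchanged for the results as deposited. That q differed from a Benjamini-Hochberg adjustment over the 11515 tested genes by at most 1.99e-06. The authors' deposited log2 column divides wildtype by knockout; ratios here were recomputed the other way round. The SE is that ratio divided by the authors' deposited z statistic. A shorter deposited list of 95 genes, whose log2 ratios measure at least 1.01 in size, holds 0 of the members. No value per mouse was used, so the planned fallback, the authors' own test, served throughout, and p-values cover only the spread that test modelled. For 59 tested genes 1 group is at 0, which leaves no finite ratio. Columns of samples from other series numbered 0.

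The members and gene lists were chosen with earlier results of these data known. All members are named; of each other list, called genes, the gene with the smallest p and the 2 highest were named, with Ppara and Ppargc1a, except for genes that are not reported here. Acnat2, Dlat, Pdpr, Lpin1, Pprc1, Prkaa2 and the called cell type markers were named after their values were seen. Starts are the deposited ones plus 1. Promoters are RefSeq (GRCm38.p6) and transcripts GENCODE M21, the same build as mm10; 50-base stretches were compared by exact match on both strands, using each member's longest protein-coding transcript. Alternatives were 3 scalings, 2 filters on low values, 2 pseudocounts and Benjamini-Yekutieli adjustment. Under the scalings, filters and that adjustment q was recomputed from each ratio with the SE kept as deposited. Those values are therefore not new tests on the reads. The intervals under other scalings used the same SE. Python 3.11.15, pandas 2.3.3, numpy 2.4.6 and scipy 1.17.1 were used.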

Additional observations from a re-analysis of the deposited data

How the results depend on the processing

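The count of called members (1 in all, 0 mitochondrial, 1 peroxisomal) was the same after scaling both groups to a common total (the same sum), scaling to that sum outside the acute phase list, quantile normalization, or limiting the test to genes of a mean FPKM of at least 1 or 10. The Benjamini-Yekutieli adjustment gave 0 called members in all and 0 peroxisomal ones, since it multiplies every q by 1 factor. Median ratios of the mitochondrial members ran from -0.16 to -0.36 over scalings and pseudocounts and those of the peroxisomal members from -0.20 to -0.40. The calls over all genes numbered 189 under the same sum, 72 under Benjamini-Yekutieli and 86 with the filter at 10 FPKM, against 124.

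Ratios near 0 changed sign with scaling. Under the same sum Acadvl was at -0.14, Etfdh at -0.16, Scp2 at -0.0685, Bdh1 at -0.18, Acsm1 at -0.0364, Pxmp2 at -0.19 and Ppargc1a at -0.16. With the acute phase list left out of that sum Acadvl was at -0.0022, Etfdh at -0.0257, Bdh1 at -0.0384, Pxmp2 at -0.0540 and Ppargc1a at -0.0188. After quantile normalization Acadvl was at -0.0023, Scp2 at -0.0468, Bdh1 at -0.0177, Pxmp2 at -0.0098 and Ppargc1a at -0.0073. Each of these was smaller in size than the SE of its gene. Among the other lists, checked after the data were seen, the same sum gave 1 call each for the ketone body, peroxin and pyruvate dehydrogenase lists in place of 0, and 3 in place of 1 for the regulators.

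The interval counts under other scalings were added after the data were seen. No paired analysis was possible because the deposited tables hold 1 value per group, and for the same reason leaving out each mouse in turn was not run. Depth per library is unknown.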
